A study of Mus musculus with 9 samples.

Results

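Cyclins, cyclin-dependent kinases (CDKs) and CDK inhibitors outside the Mediator kinase module were followed in mouse intestinal cells labelled as Cdk8 knockouts and in their parental line. The set held 38 genes out of 28059 in the deposited table, listed by symbol for what they encode, with earlier results of these data known. It does not hold every gene of these families, and 11 further cyclin and CDK genes are counted apart. All 38 were matched, and 37 passed the filter for testing, an RPKM (reads per kilobase of gene and per megaread) of 1 or more in 3 or more of the 9 libraries. The exception was Cdkn2d, the INK4d inhibitor, which lay between 0 and 0.107 RPKM in every library. By role, 19 members act in the cell cycle, 12 in transcription or RNA processing, and 7 belong to neither class.

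RNA was sequenced from 3 libraries of Cdk8 knockout clone 1 (genotype Cdk8 -/-), 3 of Cdk8 knockout clone 19 (genotype Cdk8 -/-) and 3 of the parental YAMC line (wildtype). All were grown at 32 °C and taken in logarithmic growth, with no other treatment given in the labels. The knockouts were made with CRISPR, and each group is 1 cell population, so the libraries of a group do not replicate the knockout or the picking of a clone. No clone with intact Cdk8 was analysed here, so loss of Cdk8 and clonal isolation cannot be told apart. YAMC cells are known as a conditionally immortalized line that carries a temperature-sensitive SV40 large T antigen, a viral protein that binds the RB family and p53 and is active at low growth temperature.

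Cyclins are the regulatory subunits that switch CDKs on. D-type cyclins with CDK4 and CDK6, then E-type cyclins with CDK2, phosphorylate RB and release E2F factors, cyclin A carries DNA replication, and cyclins A and B with CDK1 drive mitosis. INK4 proteins (Cdkn2a to Cdkn2d) bind CDK4 and CDK6, while CIP/KIP proteins such as KIP1 (Cdkn1b) bind cyclin-CDK complexes. A second branch of the family acts on RNA polymerase II: CDK7 in TFIIH, CDK9 in P-TEFb, CDK12 and CDK13 with cyclin K, and CDK11 with the L-type cyclins.

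The estimated depth was 22.8 to 43.5 megareads per library. Log2 values of tested genes correlated at 0.997 to 0.998 within groups, a description across genes. Cdk8 averaged 11.0 ± 0.658 RPKM in clone 1, 10.4 ± 0.157 RPKM in clone 19 and 17.6 ± 0.125 RPKM in parental cells (SD, n = 3 each), lower than in parental cells but not lost as RNA. Cdk8 is itself among the genes called lower in both clones (-0.66 and -0.74 on the log2 scale, with adjusted p of 7.6e-08 and 3.5e-08 in limma), and this does not show how much protein was left. The labels place the cells in the small intestine. Of 20 intestinal epithelial markers, 15 stayed below 1 RPKM in every library, 4 of them at 0, among these Cdx2, the intestinal identity factor; Vil1, Epcam and Lgr5 were also below 1 RPKM. The summed level of the 20 markers, most of it Krt8, Krt18 and Krt19, was 995 to 1045 RPKM in clone 1, 976 to 983 RPKM in clone 19 and 629 to 647 RPKM in parental cells. The 12 mesenchymal markers were all tested and summed to 2590.1 to 2627 RPKM in clone 1, 2294 to 2357 RPKM in clone 19 and 2464 to 2533 RPKM in parental cells. For 9 mesothelial markers the sums were 1521 to 1546, 1534 to 1542 and 833 to 840.1 RPKM in clone 1, clone 19 and parental cells. Of 8 immune markers 7 stayed below 1 RPKM, and of 6 endothelial markers 5 did, with sums of 3.23 to 3.60, 3.18 to 4.35 and 3.34 to 3.79 RPKM for immune and 0.812 to 0.876, 0.795 to 0.950 and 1.61 to 1.78 RPKM for endothelial markers in the same order of groups. The sums hide opposite moves: of 8 tested mesothelial markers, 6 were called higher and 2 lower in each clone. Of the 12 mesenchymal markers, 6 were called higher and 6 lower in clone 1, and 4 and 7 in clone 19. Of all tested genes, 39.8% were called higher and 32.6% lower in clone 1, and 36.7% and 32.3% in clone 19. The part of these marker shifts in the results below was not tested. Bulk RNA averages cells in every phase of the cycle, so a change in the share of cells that express a gene and a change in RNA per cell cannot be told apart.

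Of the 37 tested members, 11 were called higher and 19 lower in clone 1 against parental cells, and 12 higher and 19 lower in clone 19. Calls were made where limma's p, adjusted by Benjamini-Hochberg over all 12568 tested genes, lay under 0.05. Called members made up 81.1% in clone 1 and 83.8% in clone 19, beside 72.4% and 69.0% of all tested genes. Lower calls took 51.4% of members in both clones, beside 32.6% and 32.3% of all tested genes, and higher calls took 29.7% and 32.4%, beside 39.8% and 36.7%. The libraries of clone 1 and parental cells did not overlap for 30 members (81.1%, beside 75.1% of all tested genes), and those of clone 19 and parental cells for 31 (83.8%, beside 73.5%). Both comparisons use the same parental libraries. In both clones 9 members were called higher (24.3%, beside 30.7% of all tested genes) and 17 lower (45.9%, beside 25.8%). The size of change was like that of the rest: the median absolute log2 change of members was 0.25 in clone 1 and 0.21 in clone 19, beside 0.22 and 0.20 over all tested genes. A change of at least 0.4 in the same direction in both clones was seen for 7 members (18.9%), beside 17.7% of tested genes. These 7 were Ccnd1, Ccne1, Cdk2, Cdk9, Cdk16 and Cdk18, which fell, and Cdkn2c, which rose.

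**Figure D1:**
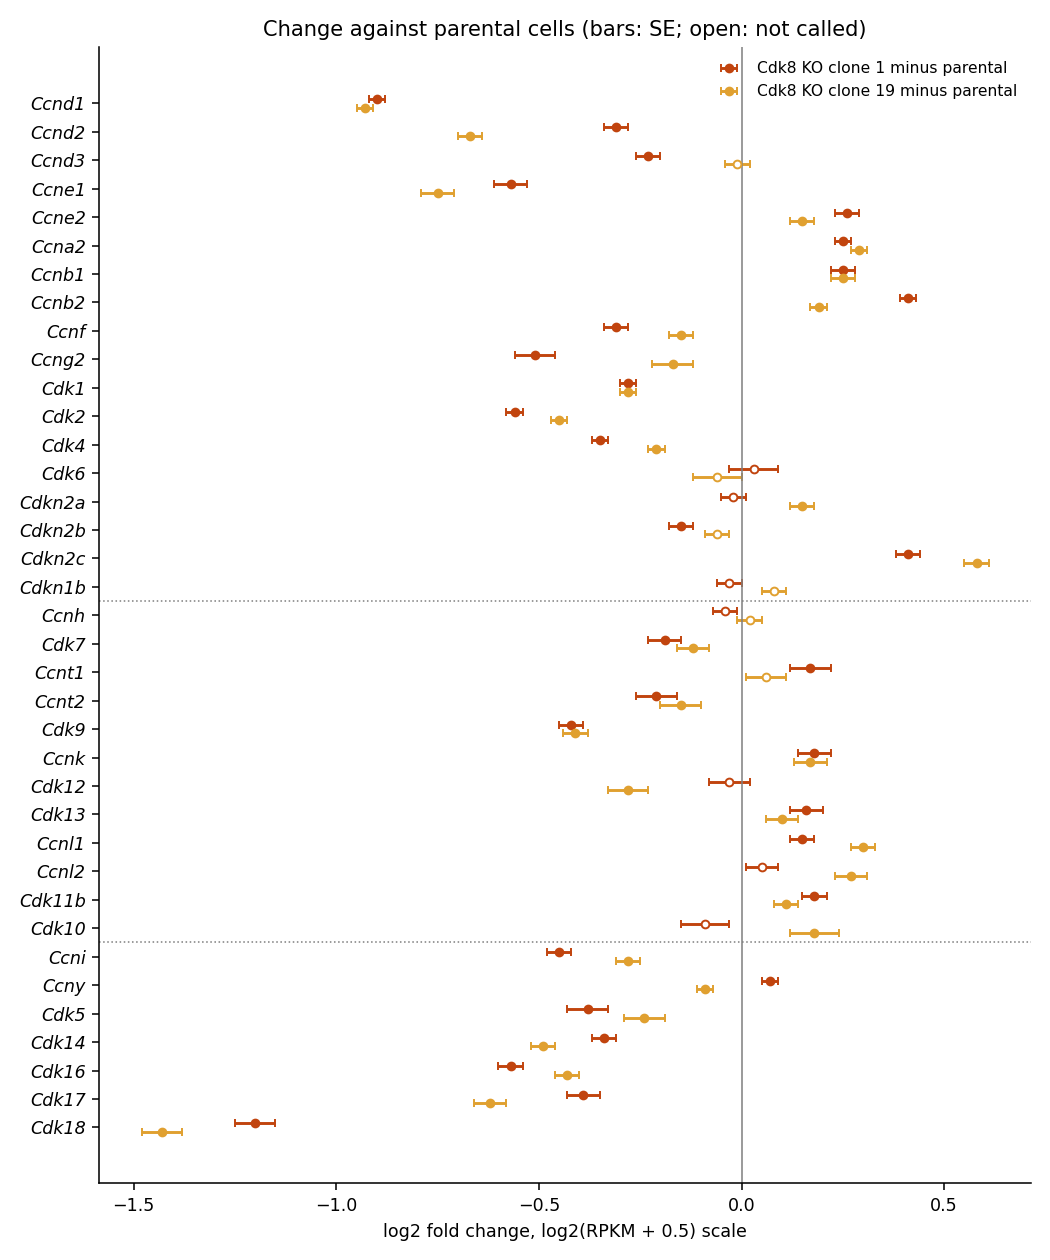
Log2 fold change of the 37 tested members in clone 1 and in clone 19 against parental cells, in RPKM with 0.5 added; bars are standard errors, open points were not called, and dotted lines part cell-cycle, transcriptional and other members. Cdk18 (-1.20 and -1.43) and Ccnd1 (-0.90 and -0.93) lie farthest to the left, and Cdkn2c (0.41 and 0.58) lies on the right in both clones.

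Among the cyclins of G1, Ccnd1 and Ccne1 fell in both clones, while Ccne2 rose. Ccnd1 encodes cyclin D1, the D-type cyclin that links mitogen signals to CDK4. Ccnd1 measured 70.5, 69.9 and 69.1 RPKM in clone 1, 67.5, 68.8 and 68.7 RPKM in clone 19, against 129.6, 132 and 129 RPKM in parental cells. All 6 knockout libraries lay far below all 3 parental ones, and the log2 fold change was -0.90 ± 0.02 in clone 1 and -0.93 ± 0.02 in clone 19 (SE, n = 3 against 3; adjusted p = 2.7e-11 in both, limma). Ccne1, which encodes cyclin E1, the CDK2 partner at the start of replication, measured 10.6, 9.70 and 9.88 RPKM in clone 1, 9.30, 8.73 and 8.51 RPKM in clone 19, against 15.4, 15.5 and 14.6 RPKM in parental cells. The 3 groups did not overlap: clone 19 was lowest and parental cells highest, with log2 fold changes of -0.57 ± 0.04 and -0.75 ± 0.04 in clone 1 and clone 19 (adjusted p = 5.4e-07 and 6.9e-08, limma). Ccnd2 also fell, to a mean of 33.6 RPKM in clone 1 and 26.1 RPKM in clone 19, against 41.9 RPKM in parental cells (log2 fold change -0.31 and -0.67). Ccnd3 fell in clone 1 (-0.23, adjusted p = 5.8e-05, limma) and had no call in clone 19 (-0.01, adjusted p = 0.82, limma). Ccne2, the cyclin E1 paralog, averaged 23.1, 21.3 and 19.1 RPKM in clone 1, clone 19 and parental cells, a rise in both clones (0.26 and 0.15).

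The make-up of the D-type and E-type cyclins shifted with these changes. The D-type cyclins summed to 115 ± 0.684 RPKM in clone 1, 108 ± 2.07 RPKM in clone 19 and 186 ± 1.73 RPKM in parental cells (SD, n = 3 each). Ccnd1 remained the main D-type transcript, at 60.7% ± 0.219 of that sum in clone 1 and 63.3% ± 0.549 in clone 19, against 70.1% ± 0.317 in parental cells. Ccnd2 took 29.2% ± 0.353, 24.1% ± 0.553 and 22.5% ± 0.347 of it in clone 1, clone 19 and parental cells. For the E-type cyclins the sum moved less, at 33.1 ± 0.155, 30.1 ± 0.433 and 34.3 ± 0.557 RPKM in the same order. Ccne1 made up 30.4% ± 1.38 of it in clone 1 and 29.4% ± 1.11 in clone 19, against 44.2% ± 1.10 in parental cells. These shares are descriptions; an exact permutation test of 3 libraries against 3 cannot go below p = 0.10, and none was run.

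**Figure D2:**
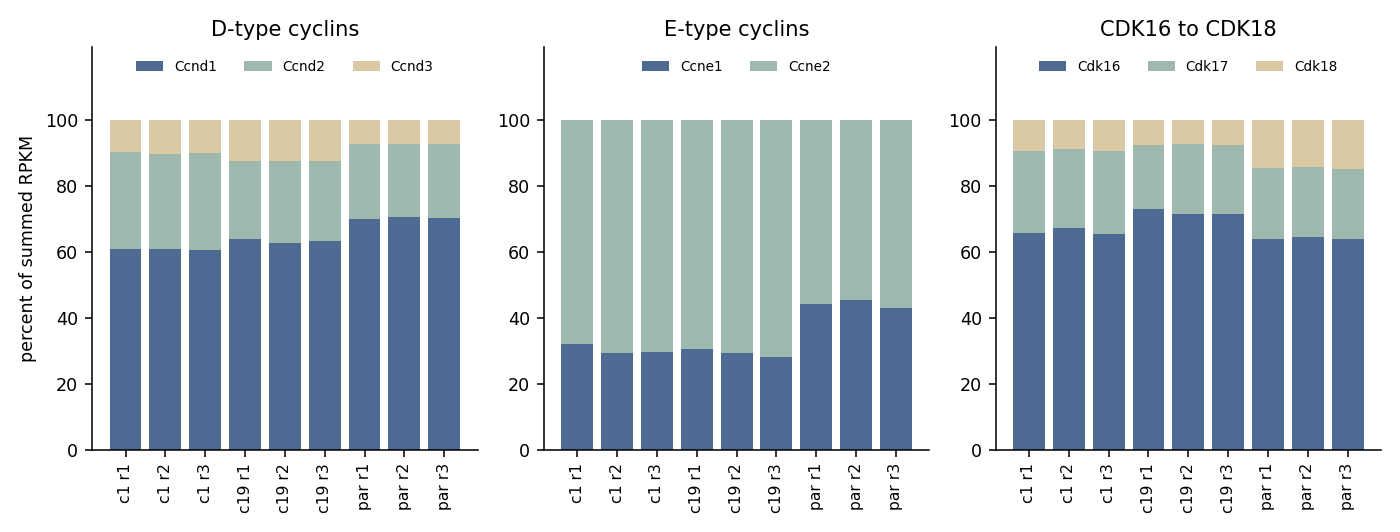
Share of each paralog in the summed RPKM of its family, 1 bar per library (c1, clone 1; c19, clone 19; par, parental; r, replicate). The Ccne1 share is 28.2% to 31.9% in the knockout libraries and 43.1% to 45.3% in the parental ones, and the Cdk18 share is 7.31% to 9.48% against 14.2% to 15.0%.

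Cyclins of S phase and mitosis rose in both clones, apart from Ccnf. Ccna2, the cyclin A of replication and mitotic entry, measured 129, 130.0 and 132 RPKM in clone 1, 134 RPKM in each clone 19 library, against 109.6, 110.1 and 109 RPKM in parental cells. Ccnb1, the cyclin B1 that forms the mitosis-promoting kinase with CDK1, measured 27.5, 27.0 and 27.9 RPKM in clone 1, 27.1, 28.1 and 27.0 RPKM in clone 19, against 22.6, 23.3 and 22.9 RPKM in parental cells. For both genes every knockout library lay above every parental one, with log2 fold changes of 0.25 and 0.29 for Ccna2 and 0.25 in both clones for Ccnb1 (adjusted p from 3.0e-08 to 6.8e-06, limma). Ccnb2 rose further in clone 1 (mean 109 RPKM, log2 fold change 0.41) than in clone 19 (mean 93.3 RPKM, 0.19), against 81.6 RPKM in parental cells. With neighbouring genes subtracted its rises were 0.28 and 0.24, and the clones were not called different. Ccnf encodes cyclin F, an F-box protein that marks other proteins for destruction and has no CDK partner; it fell to 25.4 and 28.4 RPKM in clone 1 and clone 19, against 31.7 RPKM in parental cells (-0.31 and -0.15). Ccng2, an atypical cyclin that goes up when cells leave the cycle, fell in clone 1 (-0.51, adjusted p = 6.1e-06, limma) and in clone 19 (-0.17, adjusted p = 0.016, limma). The clone 19 call for Ccng2 was lost without clone 19 replicate 2 (-0.11, adjusted p = 0.056, limma) or without parental replicate 2 (-0.14, adjusted p = 0.064, limma).

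Among the kinases of the cell cycle, Cdk1, Cdk2 and Cdk4 fell in both clones and Cdk6 was not called in either. Cdk1, the mitotic kinase, measured 67.9, 69.7 and 68.2 RPKM in clone 1, 69.9, 68.8 and 68.1 RPKM in clone 19, against 83.1, 83.8 and 83.8 RPKM in parental cells. Cdk2, the partner of cyclins E and A, measured 21.9, 21.8 and 21.6 RPKM in clone 1, 23.6, 23.3 and 23.5 RPKM in clone 19, against 32.5, 32.0 and 32.2 RPKM in parental cells. Neither gene had an overlap between knockout and parental libraries, and the log2 fold change was -0.28 ± 0.02 in both clones for Cdk1 and -0.56 ± 0.02 and -0.45 ± 0.02 for Cdk2 (SE; adjusted p from 2.0e-09 to 2.2e-07, limma). Cdk4, the member with the highest level per length in parental cells, measured 197, 201 and 199 RPKM in clone 1, 224, 212 and 222 RPKM in clone 19, against 249, 254 and 259 RPKM in parental cells (log2 fold change -0.35 and -0.21). Cdk6, its paralog, measured 13.5, 11.8 and 13 RPKM in clone 1, 11.3, 11.9 and 12.8 RPKM in clone 19, against 13.2, 12.0 and 12.4 RPKM in parental cells. The Cdk6 libraries overlapped throughout (0.03 and -0.06, adjusted p = 0.70 and 0.37, limma). The summed RPKM of Ccna2, Ccnb1 and Ccnb2 over that of Cdk1 was 3.88 ± 0.0682 in clone 1 and 3.70 ± 0.0877 in clone 19, against 2.56 ± 0.00488 in parental cells. With the median of the 50 nearest tested genes subtracted, neither Ccna2 (0.01 and 0.02) nor Cdk1 (0.05 and 0.02) was called in either clone. Cdk4 then had no call in clone 1 (0.04) and a higher call in clone 19 (0.15). Cdk2 was still called lower in both (-0.23 and -0.15). The ratio of D-type cyclins to Cdk4 plus Cdk6 was 0.542 ± 0.00555, 0.466 ± 0.0208 and 0.697 ± 0.0165 in clone 1, clone 19 and parental cells.

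**Figure D3:**
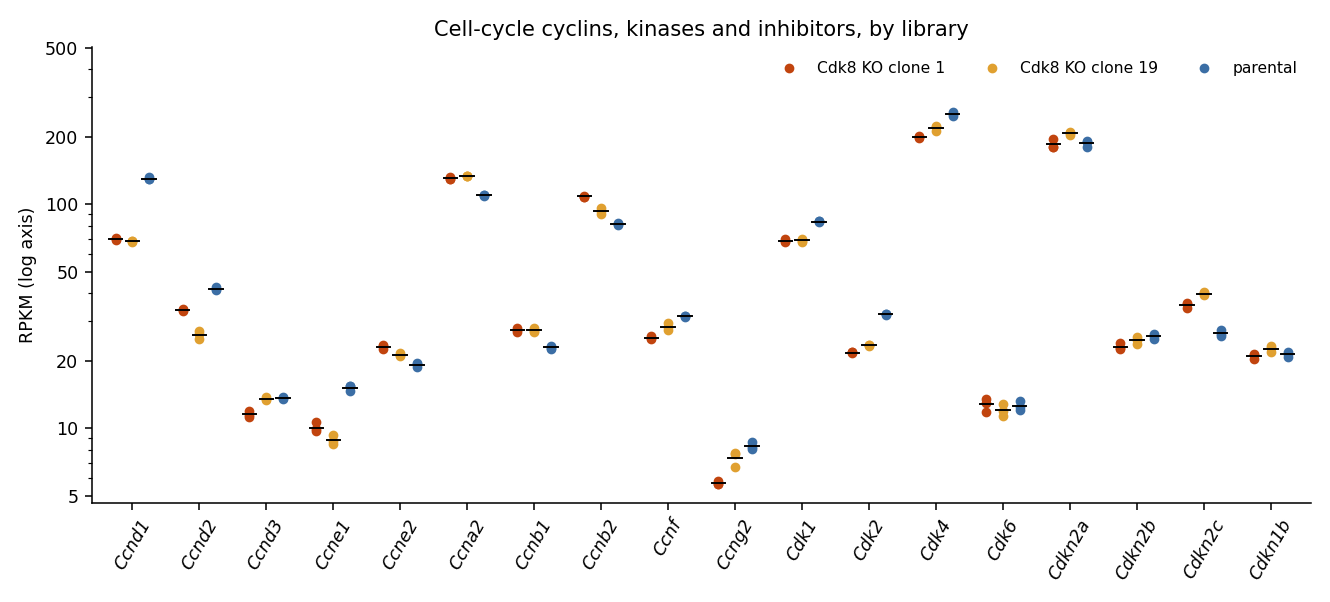
RPKM on a log axis for the 18 tested cell-cycle members in each library; points are libraries and black lines group means (n = 3 each). Ccnd1 lies at 67.5 to 70.5 RPKM in the knockout libraries and 129 to 132 RPKM in the parental ones, while Cdk6 and Cdkn1b overlap between groups.

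Promoters of 4 genes of the mitotic group are shown because each holds the CCAAT box, marked below, while Ccnb1 and Ccnb2 rose and Cdk1 and Ccnf fell. With neighbouring genes subtracted, the calls of Ccnb1 and Ccnb2 held in both clones and those of Cdk1 (0.05 and 0.02) and Ccnf (0.01 and -0.02) ended. Each window runs from 250 bases before to 50 bases after the gene start and is from RefSeq, build GRCm38.p6, 5′ to 3′ on the gene's strand. That build is not the one named for the expression values. Capitals mark the cell cycle homology region (CHR, TTTGAA or TTCGAA), the CCAAT box (CCAAT) and the E2F site (TTTCGCGC, TTTGGCGC, TTCCCGCC or TTTCCCGC), each searched on both strands; TTCCCGCC and TTTCCCGC can overlap each other, and a box on the other strand reads ATTGG or TTCAAA.
Ccnb1 (chr13:100786437-100786736, minus strand): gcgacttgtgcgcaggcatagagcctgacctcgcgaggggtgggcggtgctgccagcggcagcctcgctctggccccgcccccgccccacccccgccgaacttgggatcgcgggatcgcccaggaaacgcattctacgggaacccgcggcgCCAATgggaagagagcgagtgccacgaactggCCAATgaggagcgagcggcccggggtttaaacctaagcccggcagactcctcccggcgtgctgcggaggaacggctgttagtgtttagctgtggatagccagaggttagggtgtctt
Ccnb2 (chr9:70421505-70421804, minus strand): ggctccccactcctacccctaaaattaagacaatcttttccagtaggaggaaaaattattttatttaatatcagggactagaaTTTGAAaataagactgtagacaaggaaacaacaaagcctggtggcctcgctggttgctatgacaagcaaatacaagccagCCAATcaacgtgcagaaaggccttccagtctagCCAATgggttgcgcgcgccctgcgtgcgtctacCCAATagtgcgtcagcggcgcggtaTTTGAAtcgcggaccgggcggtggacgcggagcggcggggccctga
Cdk1 (chr10:69352863-69353162, minus strand): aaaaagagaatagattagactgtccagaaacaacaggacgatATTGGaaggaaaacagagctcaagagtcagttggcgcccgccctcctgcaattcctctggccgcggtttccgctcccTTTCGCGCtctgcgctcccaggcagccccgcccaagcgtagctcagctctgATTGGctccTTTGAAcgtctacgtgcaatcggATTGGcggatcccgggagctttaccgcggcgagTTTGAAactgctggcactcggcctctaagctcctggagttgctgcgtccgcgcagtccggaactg
Ccnf (chr17:24251360-24251659, minus strand): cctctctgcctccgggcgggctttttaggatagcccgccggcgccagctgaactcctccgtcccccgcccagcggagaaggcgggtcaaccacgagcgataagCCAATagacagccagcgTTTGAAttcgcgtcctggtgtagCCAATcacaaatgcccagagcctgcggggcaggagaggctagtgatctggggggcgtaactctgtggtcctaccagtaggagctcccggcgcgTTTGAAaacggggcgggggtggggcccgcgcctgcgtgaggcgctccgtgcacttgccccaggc

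The Ccnb1 window held 2 CCAAT boxes, the first starting 99 bases before the gene start, and no CHR word. The Ccnb2 window held 3 CCAAT boxes and 2 CHR words, Ccnf had 2 of each, and Cdk1 had 3 CCAAT boxes, 2 CHR words and 1 E2F word. Of 34 windows for 30 members, 18 belonged to cell-cycle members: 10 held a CCAAT box (55.6%, beside 37.4% of all 32851 windows), 4 a CHR word (22.2%, beside 19.2%) and 3 an E2F word (16.7%, beside 3.49%). Among cell-cycle members, Ccna2, Ccnd1, Ccnd2 and Ccne2 had no window, and Ccnd3, Cdkn2a and Cdkn2c had 2 each. None of the 11 windows of transcriptional members held a CHR or an E2F word. Of the 5 windows of other members 2 held a CHR word and none an E2F word. A match is a run of letters in this window and no measure of binding.

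Of the inhibitors in the set, Cdkn2c rose in both clones, and no other was called in both. Cdkn1b was the only CIP/KIP gene in the set, which leaves out Cdkn1a and Cdkn1c. Cdkn2c, which encodes INK4c, measured 36.0, 34.4 and 36.1 RPKM in clone 1, 40.5, 40.1 and 39.2 RPKM in clone 19, against 26.4, 27.5 and 25.8 RPKM in parental cells. The 3 groups did not overlap, and the log2 fold change was 0.41 ± 0.03 in clone 1 and 0.58 ± 0.03 in clone 19 (SE; adjusted p = 3.0e-07 and 2.2e-08, limma). Cdkn2a, whose transcripts encode INK4a and, in another reading frame, ARF, measured 181, 195 and 179.6 RPKM in clone 1, 209.9, 208 and 204 RPKM in clone 19, against 181, 190.4 and 191 RPKM in parental cells. The rise in clone 19 passed the test (0.15, adjusted p = 0.0020, limma), whereas clone 1 had no call (-0.02, adjusted p = 0.62, limma). With quantile normalization Cdkn2a had a lower call in clone 1 (-0.12, adjusted p = 0.0090, limma) and no call in clone 19 (0.03, adjusted p = 0.50, limma). A value per gene cannot tell the INK4a and ARF transcripts apart. Cdkn2b, which lies next to Cdkn2a in the gene order and encodes INK4b, fell in clone 1 (-0.15, adjusted p = 0.0020, limma). In clone 19 Cdkn2b was not called (-0.06, adjusted p = 0.12, limma), though it was without clone 19 replicate 2 (-0.09, adjusted p = 0.0487, limma), with median-ratio scaling (-0.08, adjusted p = 0.044, limma) or with quantile normalization (-0.09, adjusted p = 0.024, limma). Cdkn1b, which encodes KIP1, measured 20.3, 21.5 and 21.3 RPKM in clone 1, 23.3, 21.8 and 22.7 RPKM in clone 19, against 20.8, 21.9 and 21.4 RPKM in parental cells. The Cdkn1b libraries overlapped and neither clone was called (-0.03 and 0.08, adjusted p = 0.52 and 0.056, limma). In clone 19 it was called higher without clone 1 replicate 1 (0.08, adjusted p = 0.043, limma), without clone 19 replicate 2 (0.10, adjusted p = 0.024, limma), without parental replicate 2 (0.10, adjusted p = 0.0455, limma) and with array quality weights (0.08, adjusted p = 0.043, limma). The INK4 genes summed to 244 ± 8.55 RPKM in clone 1 and 272 ± 3.28 RPKM in clone 19, against 239.8 ± 5.74 RPKM in parental cells, and Cdk4 plus Cdk6 to 212 ± 1.14 and 232 ± 6.40 RPKM, against 267 ± 4.69 RPKM. The ratio of these sums was 1.15 ± 0.0361 in clone 1 and 1.17 ± 0.0400 in clone 19, against 0.899 ± 0.0174 in parental cells. The genes around Cdk4 were lower too, by medians of -0.39 and -0.36.

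Among transcriptional members, Cdk9 fell in both clones, as the genes around it did, and the subunits of a complex often had different calls. Cdk9, the kinase of P-TEFb that releases paused RNA polymerase II, measured 9.17, 9.02 and 9.38 RPKM in clone 1, 9.41, 9.35 and 8.98 RPKM in clone 19, against 12.3, 12.6 and 12.5 RPKM in parental cells. Every knockout library lay below every parental one (log2 fold change -0.42 ± 0.03 and -0.41 ± 0.03, SE; adjusted p = 5.7e-07 and 7.7e-07, limma). Its partner Ccnt1 measured 13.4, 12.6 and 12.8 RPKM in clone 1, 11.8, 12.1 and 11.9 RPKM in clone 19, against 12.0, 11.9 and 10.5 RPKM in parental cells. The clone 1 libraries lay above the parental ones and clone 19 overlapped with them, a rise in clone 1 (0.17, adjusted p = 0.0083, limma) and no call in clone 19 (0.06, adjusted p = 0.31, limma). The second partner, Ccnt2, fell in both (-0.21 and -0.15, adjusted p = 0.0047 and 0.026, limma). In clone 19 the Ccnt2 call was lost without clone 19 replicate 2 (-0.16, adjusted p = 0.055), likewise without clone 19 replicate 3 (-0.12, 0.10) or parental replicate 3 (-0.11, 0.11; all limma).

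Cdk7, the TFIIH kinase that also activates other CDKs, measured 7.22, 7.42 and 7.36 RPKM in clone 1, 7.93, 7.42 and 7.78 RPKM in clone 19, against 8.56, 8.61 and 8.07 RPKM in parental cells. It fell by 0.19 in clone 1 and by 0.12 in clone 19 on the log2 scale (adjusted p = 0.0014 and 0.021, limma). The clone 19 call for Cdk7 was lost without clone 19 replicate 2 (-0.09, adjusted p = 0.080), parental replicate 1 (-0.11, 0.071) or parental replicate 2 (-0.10, 0.075; all limma), and with quantile normalization (-0.10, 0.057). Its partner Ccnh measured 16.0, 15.4 and 15.8 RPKM in clone 1, 16.8, 16.4 and 16.5 RPKM in clone 19, against 15.9, 16.7 and 16.2 RPKM in parental cells, with overlap and no call (-0.04 and 0.02, adjusted p = 0.20 and 0.48, limma); with median-ratio scaling Ccnh had a lower call in clone 1 (-0.08, adjusted p = 0.033, limma). Ccnk, the cyclin of CDK12 and CDK13, rose in both clones (0.18 and 0.17), as did Cdk13 (0.16 and 0.10). The Cdk13 call in clone 19 (adjusted p = 0.030, limma) ended without clone 19 replicate 2 (0.059) or 3 (0.10), without parental replicate 2 (0.077) or 3 (0.12) and with median-ratio scaling (0.069). Cdk12, which with cyclin K sustains elongation of long genes, fell in clone 19 (-0.28, adjusted p = 2.8e-04, limma) and had no call in clone 1 (-0.03, adjusted p = 0.58, limma).

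CDK11 and the L-type cyclins act in RNA splicing. Ccnl1 rose in both clones (0.15 and 0.30) as did Cdk11b (0.18 and 0.11), but with neighbouring genes subtracted both were called lower in both clones (-0.28 and -0.13 for Ccnl1, -0.13 and -0.18 for Cdk11b). Ccnl2 rose in clone 19 (0.27, adjusted p = 8.6e-05, limma) and had no call in clone 1 (0.05, adjusted p = 0.29, limma). With neighbouring genes subtracted Ccnl2 had a lower call in clone 1 (-0.26) and none in clone 19 (-0.01). Cdk10, a kinase that pairs with cyclin M, had a higher call in clone 19 (0.18, adjusted p = 0.026, limma) and not in clone 1 (-0.09, adjusted p = 0.21, limma). The Cdk10 call was lost without clone 19 replicate 1 (0.16, adjusted p = 0.079, limma) or 2 (0.14, 0.094). It was also lost without parental replicate 1 (0.14, 0.10) or 3 (0.18, 0.0527), and with no filter on low values (0.18, 0.0536, all limma). With neighbouring genes subtracted Cdk10 had a lower call in clone 1 (-0.50) and no call in clone 19 (-0.14).

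**Figure D4:**
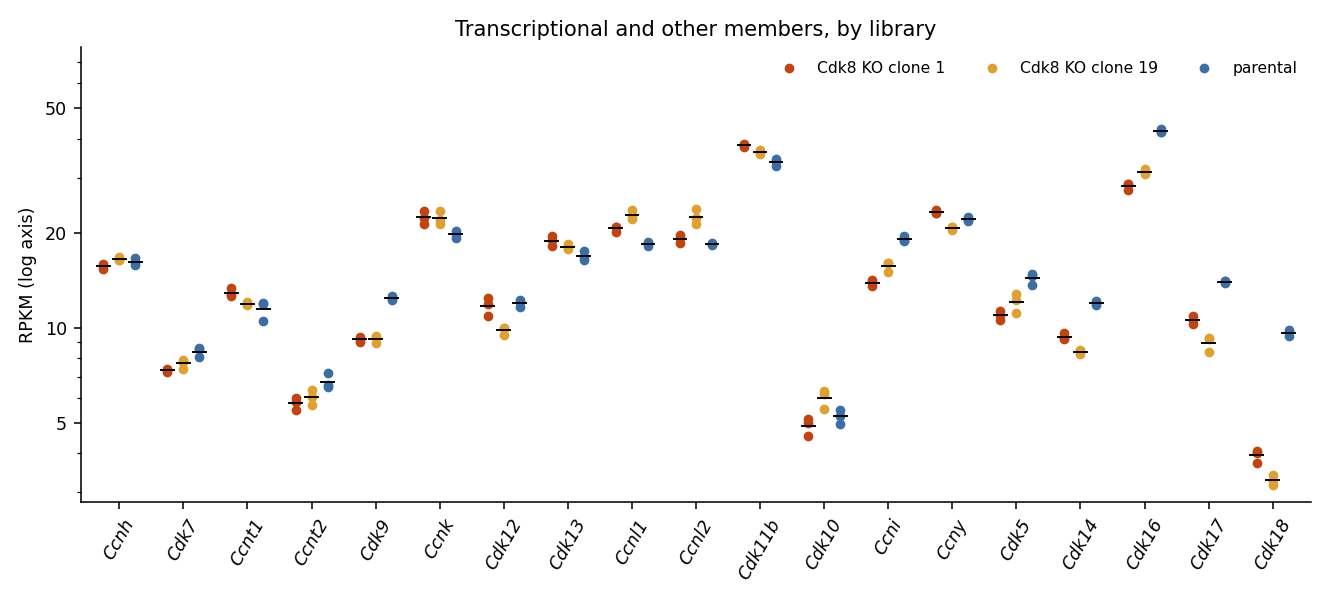
RPKM on a log axis for the 12 transcriptional and 7 other members in each library; points are libraries and black lines group means (n = 3 each). Cdk18 lies at 3.17 to 4.06 RPKM in the knockout libraries and 9.45 to 9.82 RPKM in the parental ones, and Cdk16 at 27.5 to 32.0 against 41.9 to 42.9 RPKM.

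The 7 members that belong to neither class fell in both clones, with Ccny as the exception. Cdk18, a PCTAIRE kinase, showed the largest change of the 37 tested members: it measured 4.06, 3.73 and 4.0 RPKM in clone 1, 3.25, 3.17 and 3.40 RPKM in clone 19, against 9.70, 9.45 and 9.82 RPKM in parental cells. The 3 groups did not overlap (log2 fold change -1.20 ± 0.05 and -1.43 ± 0.05, SE; adjusted p = 1.8e-09 and 5.6e-10, limma). Cdk16, another PCTAIRE kinase and a partner of cyclin Y, measured 28.7, 28.8 and 27.5 RPKM in clone 1, 31.2, 30.9 and 32.0 RPKM in clone 19, against 42.1, 42.9 and 41.9 RPKM in parental cells. Clone 1 lay lowest and parental cells highest (-0.57 ± 0.03 and -0.43 ± 0.03, SE; adjusted p = 6.1e-09 and 6.9e-08, limma). Cdk17, the remaining PCTAIRE gene, fell as well (-0.39 and -0.62). The PCTAIRE genes together summed to 42.9 ± 0.734 RPKM in clone 1 and 43.6 ± 0.985 RPKM in clone 19, against 66.0 ± 0.438 RPKM in parental cells. Cdk14, a membrane-linked kinase that cyclin Y brings to Wnt receptors, fell to 9.38 and 8.41 RPKM in clone 1 and clone 19, against 12.0 RPKM in parental cells (-0.34 and -0.49). Cdk5, best known from neurons, fell too (-0.38 and -0.24), and so did the atypical cyclin gene Ccni (-0.45 and -0.28). Ccny, the cyclin of CDK14 and CDK16, rose in clone 1 (0.07, adjusted p = 0.019, limma) and fell in clone 19 (-0.09, adjusted p = 0.0075, limma). The Ccny call in clone 1 ended without clone 1 replicate 1 (0.07, adjusted p = 0.058), parental replicate 2 (0.07, 0.058) or parental replicate 3 (0.07, 0.068), with median-ratio scaling (0.04, 0.16) and with quantile normalization (0.03, 0.25; all limma).

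Some of these changes were shared by the genes around the member. Cdk1, Cdk2 and Cdk4 all lie on chromosome 10, where the median log2 change of 557 tested genes was -0.30 in clone 1 and -0.29 in clone 19. The 50 tested genes nearest to each had medians of -0.33 and -0.29 for Cdk1, -0.32 and -0.30 for Cdk2, and -0.39 and -0.36 for Cdk4. With those medians subtracted, Cdk1 was not called (0.05 and 0.02, adjusted p = 0.071 and 0.52, limma), Cdk4 had no call in clone 1 and had a higher call in clone 19 (0.04 and 0.15, adjusted p = 0.10 and 4.5e-05, limma), and Cdk2 was still called lower in both (-0.23 and -0.15). The neighbours of Cdk9 were lower by medians of -0.40 and -0.41, and its own change was -0.02 and -0.00 after subtraction (adjusted p = 0.56 and 0.99, limma). On chromosome 3, whose 563 tested genes had medians of 0.28 and 0.30, Ccna2 came to 0.01 and 0.02 (adjusted p = 0.81 and 0.51, limma) and Ccnl1 was called lower (-0.28 and -0.13). Ccnl2 and Cdk11b, which lie near each other with 5 tested genes between them, had neighbour medians of 0.31 and 0.28, and 0.31 and 0.29. After subtraction Cdk11b was called lower in both clones (-0.13 and -0.18), and Ccnl2 had a lower call in clone 1 (-0.26) and none in clone 19 (-0.01, adjusted p = 0.91, limma). Cdk10 came to -0.50 and -0.14, a lower call in clone 1 alone. Calls of Ccnf ended in both clones (0.01 and -0.02) and of Ccnd3 in clone 1 (-0.01). Those of Ccny ended in both (-0.02 and -0.04), those of Ccnt2 (-0.14, adjusted p = 0.080, limma) and Cdk5 (-0.13, adjusted p = 0.0529, limma) ended in clone 19, and Cdk17 came to -0.17 and -0.35. Ccnh had a lower call in clone 1 after subtraction (-0.11, adjusted p = 0.0066, limma).

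With neighbours subtracted, 7 members were called higher in clone 1 (18.9%, beside 33.6% of all tested genes) and 19 lower (51.4%, beside 32.7%). In clone 19 the counts were 8 higher (21.6%, beside 32.0%) and 14 lower (37.8%, beside 31.3%). Several members differed from their neighbours. Ccnd1 was at -0.83 and -0.92 after subtraction, Ccne1 at -0.58 and -0.77, Cdkn2c at 0.45 and 0.62, Cdk16 at -0.67 and -0.52, and Cdk18 at -1.26 and -1.36. Called in both clones with and without the subtraction were 6 members higher (16.2%, beside 22.0% of tested genes) and 11 lower (29.7%, beside 19.3%). The 6 were Ccne2, Ccnb1, Ccnb2, Cdkn2c, Ccnk and Cdk13. The 11 were Ccnd1, Ccnd2, Ccne1, Ccng2, Cdk2, Cdk7, Ccni, Cdk14, Cdk16, Cdk17 and Cdk18. Adjacent members did not always move as one: Ccnb1 rose and Cdk7 fell in both clones with 2 tested genes between them. Ccng2 and Ccni, with no tested gene between them, both fell. Why neighbouring genes shifted together was not tested.

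**Figure D5:**
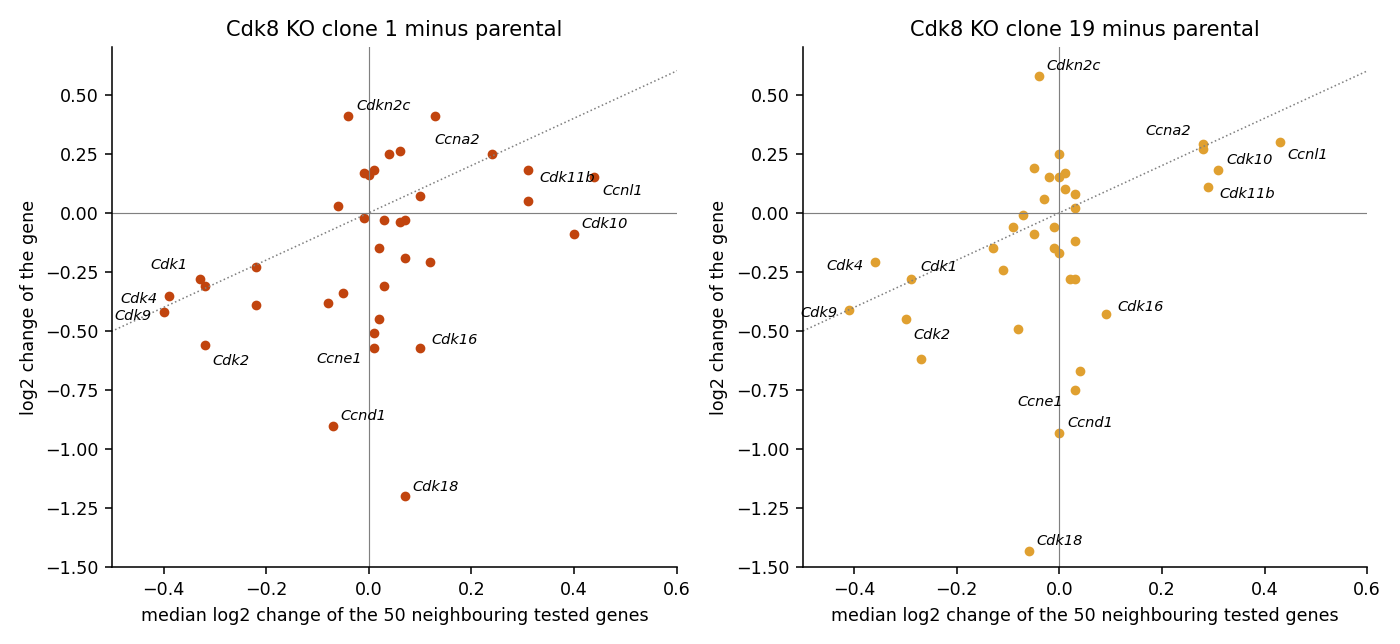
Log2 change of each tested member (vertical) against the median log2 change of its 50 neighbouring tested genes (horizontal), in RPKM with 0.5 added, for clone 1 and clone 19 against parental cells; on the dotted line a gene moved as its neighbours did. Cdk1, Cdk9 and Ccna2 lie near the line in both clones and Cdk4 in clone 1, while Ccnd1, Ccne1, Cdk18 and Cdkn2c lie far from it.

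The median absolute log2 difference of members between the clones was 0.14, beside 0.10 over all tested genes. Of the 37 members, 15 were called higher and 10 lower in clone 19 than in clone 1 (67.6%, beside 43.0% of all tested genes). Higher calls took 40.5% of members, beside 18.5% of all tested genes, and lower calls 27.0%, beside 24.5%, and the libraries of the clones did not overlap for 27 members (73.0%, beside 51.5%). None differed by 0.4 or more, a size that 3.22% of tested genes passed upward and 1.52% downward. The largest were Ccnd2 (-0.36, adjusted p = 8.9e-06, limma), lower in clone 19, and Ccng2 (0.34, adjusted p = 5.3e-04, limma), higher in clone 19. Clone 19 also had more Cdk10 (0.27), Ccnl2 (0.23) and Ccnd3 (0.22), and less Cdk12 (-0.25), Cdk17 (-0.23), Cdk18 (-0.23) and Ccnb2 (-0.22). Members whose difference did not pass included Ccnd1 (-0.03, adjusted p = 0.19, limma), Cdk1 (0.01, adjusted p = 0.79, limma) and Cdk9 (0.01, adjusted p = 0.86, limma). With neighbours subtracted the Ccnd1 difference was called (-0.09, adjusted p = 0.0050, limma). Those of Ccnd3 (0.07, adjusted p = 0.14), Cdk18 (-0.10, 0.11) and Ccnb2 (-0.04, 0.16, all limma) were then no longer called.

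Lists of genes that work on the same complexes are read against all tested genes, of which 39.8% were called higher and 32.6% lower in clone 1, and 36.7% and 32.3% in clone 19. Of 10 genes that activate or restrain CDKs, 6 were higher and 4 lower in clone 1 (60% and 40%), with 4 higher and 3 lower in clone 19 (40% and 30%). Cdkn3, a phosphatase that acts on CDK2, averaged 38.5 ± 2.79 RPKM in clone 1 and 38.5 ± 0.812 RPKM in clone 19, against 18.4 ± 0.188 RPKM in parental cells (log2 fold change 1.04 in both; 0.97 and 1.01 with neighbours subtracted). Cks1b, a small CDK-binding protein, rose (0.41 and 0.47; 0.17 and 0.18 with neighbours subtracted), and Wee1, the kinase that holds CDK1 inactive, fell (-0.34 and -0.25; -0.52 and -0.38 with neighbours subtracted). Of the RB family, Rbl2 fell in both clones (-0.18 and -0.12) and Rb1 and Rbl1 were not called, so that 0 of 3 were higher and 1 lower (33.3%) in each. Of 20 genes of cyclin destruction, 11 were higher and 6 lower in clone 1 (55% and 30%), with 8 higher and 6 lower in clone 19 (40% and 30%). Skp1, the SCF adaptor, rose (0.60 and 0.47), and Anapc2 (-0.44 and -0.39) and Fzr1 (-0.39 and -0.35), both of the anaphase-promoting complex, fell, as did Ambra1, which marks D-type cyclins for destruction (-0.35 and -0.44). With neighbours subtracted these were 0.16 and 0.16 for Skp1, -0.12 and -0.06 for Anapc2, -0.01 in both clones for Fzr1, and -0.05 and -0.12 for Ambra1. The calls of Fzr1 then ended in both clones (adjusted p = 0.81 and 0.83, limma), that of Ambra1 in clone 1 (0.18) and that of Anapc2 in clone 19 (0.0535). Of 17 mitotic kinase and checkpoint genes, 10 were higher and 2 lower in clone 1 (58.8% and 11.8%), with 8 higher and 3 lower in clone 19 (47.1% and 17.6%). Of 12 genes read as marks of proliferation, 5 were higher and 7 lower in clone 1 (41.7% and 58.3%), with 2 higher and 6 lower in clone 19 (16.7% and 50%); Rrm2, a subunit of ribonucleotide reductase, rose in both (0.66 and 0.63). Mki67 averaged 39.8 ± 6.10, 37.1 ± 1.5 and 33.8 ± 1.03 RPKM in clone 1, clone 19 and parental cells. Both named genes averaged higher in the clones, while more of the 12 genes were called lower than higher in each clone.

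Around the transcriptional kinases, read against the same shares (39.8% and 32.6% of all tested genes in clone 1, 36.7% and 32.3% in clone 19), 12 of 14 P-TEFb regulators were tested: 3 were higher and 4 lower in clone 1 (25% and 33.3%), with 4 higher and 5 lower in clone 19 (33.3% and 41.7%). Of the super elongation complex, Aff4 (0.89 and 0.64) and Ell2 (0.59 and 0.35) rose, and Mllt1 (-0.51 and -0.37) and Mllt3 (-0.67 and -0.81) fell. With neighbours subtracted Aff4 was at 0.44 and 0.29 and Mllt1 at -0.20 and -0.21. Of 8 TFIIH partners of CDK7, 3 were higher and 1 lower in clone 1 (37.5% and 12.5%), with 2 higher and 1 lower in clone 19 (25% and 12.5%); Gtf2h4, a core subunit, fell (-0.49 and -0.26) but was not called with neighbours subtracted (-0.08 and -0.10). Of 13 genes of polymerase pausing and tail phosphorylation, 4 rose and 6 fell in each clone (30.8% and 46.2%), among them the phosphatase gene Ssu72 (0.56 and 0.39; 0.27 and 0.11 with neighbours subtracted) and the NELF subunit Nelfb (-0.42 and -0.39; -0.13 and -0.09). Of 7 partners of CDK5 and the cyclin Y kinases, 6 were tested, with 0 higher and 3 lower in clone 1 (0% and 50%) and 1 higher and 3 lower in clone 19 (16.7% and 50%). Cdk5r1, the activator of CDK5, averaged 0.562 ± 0.0158 RPKM in clone 1 and 0.650 ± 0.0637 RPKM in clone 19. Parental cells averaged 1.15 ± 0.0347 RPKM (-0.64 and -0.52). Cdk5r1 lay near the filter of 1 RPKM and passed it through the parental libraries alone. The filter thus favoured a lower call for Cdk5r1, which is among those counted above. Cables1, an adaptor of CDK5, fell too (-1.08 and -0.90). Of 11 further cyclin and CDK genes, 10 were in the table and 4 were tested, with 2 higher in clone 1 (50%) and 3 in clone 19 (75%) and 0 lower in either; Ccng1, a p53 target, rose (0.39 and 0.73). In the Mediator kinase module 6 of 7 genes were tested, 1 higher and 2 lower in clone 1 (16.7% and 33.3%), and 2 higher and 3 lower in clone 19 (33.3% and 50%).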

How the data were processed

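The deposited file is a table of RPKM values made by the authors, each library being a column. GSNAP, DESeq and build NCBIM37 are named per the submitters' processing notes, without versions or roles; annotation, counting rule and strand setting were not stated there. RPKM divides by gene length and library reads. Columns were mapped to samples by the identifiers in the labels. Of the IDs, 24998 were named through RefSeq GRCm38.p6, 16 through GENCODE M21, and 3045 had no name. Depth was estimated from the smallest steps between low values, with exon lengths from another build, so the totals are approximate and no count test was run.

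Tests were run in R 4.3.3 with limma 3.58.1, taking log2(RPKM + 0.5), which understates the change of low genes, with a mean-variance trend, over 12568 genes, all 9 libraries in 1 model and Benjamini-Hochberg adjustment within a contrast. A p-value here covers the spread between libraries alone, which may be technical. Members, gene lists (pathway and marker genes), tests and alternatives were chosen with earlier results of these data known. Values in every library are given for members that changed by at least 0.4 the same way in both clones, or between clones, and for 14 core partners; up to 4 genes per pathway list are named, those with the largest change of at least 0.25 in both clones; Rb1, Rbl1, Rbl2 and Mki67 are named outside this rule, with their values known. For the neighbour subtraction, the median of the 50 nearest tested genes was taken off in each library; 11578 tested genes had such neighbours and the rest entered as they were. Reads of Ccnb1, Ccnb2 and Ccnd3 could be split with pseudogene copies.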

Additional observations from a re-analysis of the deposited data

Results flagged for a closer look

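The effects of the 2 clones against the same parental libraries differed by the direct test, clone 19 minus clone 1, for 25 of 37 members (adjusted p under 0.05, limma), beside 43.0% of all tested genes. Lower in clone 19 were Ccnd2 (-0.36), Cdk12 (-0.25), Cdk17 (-0.23), Cdk18 (-0.23), Ccnb2 (-0.22), Ccne1 (-0.17), Ccny (-0.17), Cdk14 (-0.15), Ccne2 (-0.11) and Cdk11b (-0.07). Higher in clone 19 were Ccng2 (0.34), Cdk10 (0.27), Ccnl2 (0.23), Ccnd3 (0.22), Ccni (0.17), Cdkn2c (0.17), Ccnf (0.16), Cdkn2a (0.16), Ccnl1 (0.14), Cdk4 (0.14), Cdk5 (0.14), Cdk16 (0.14), Cdk2 (0.10), Cdkn1b (0.10) and Ccna2 (0.04). With neighbouring genes subtracted, the calls of Ccnb2 (-0.04), Ccnd3 (0.07), Ccne2 (-0.05), Ccny (-0.02), Cdk18 (-0.10) and Ccnf (-0.03) ended, among others. Those of Ccna2 (main adjusted p = 0.0494), Cdk5 (0.0490) and Cdk11b (0.039) ended without several single libraries (adjusted p 0.069 to 0.12 for Ccna2, 0.056 to 0.18 for Cdk5, and 0.0532 to 0.12 for Cdk11b, limma), and that of Cdkn1b without clone 1 replicate 1 (0.098), clone 19 replicate 1 (0.11) or clone 19 replicate 3 (0.070). Calls appeared for Cdkn2b without clone 1 replicate 2 (0.11, adjusted p = 0.030, limma) or clone 19 replicate 1 (0.12, 0.028), and for Ccnt1 without parental replicate 3 (-0.11, 0.022) or with the 2 clones alone in the fit (-0.11, 0.037). With neighbouring genes subtracted, calls appeared for Ccnd1 (-0.09, 0.0050), Cdkn2b (0.12, 0.027), Ccnh (0.10, 0.022) and Ccnt2 (0.19, 0.045), and Ccnh was also called with median-ratio scaling (0.08, 0.040) or quantile normalization (0.09, 0.035). Cdkn2b was also called with median-ratio scaling (0.10, 0.027), quantile normalization (0.10, 0.025), array quality weights (0.10, 0.0479) or the replicate block (0.09, 0.028).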

How the results depend on the processing

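Of 37 members, 24 kept the same call (higher, lower or none) in clone 1 and 19 in clone 19 against parental cells. Between clones 22 did. These counts cover every alternative other than the 1.5-fold threshold, which was applied to counts alone. Members with no call could still change sign, such as Cdk6 in clone 19 with neighbours subtracted (-0.06 to 0.03). With a cutoff of 1.5-fold on the estimated change added, 1743, 1564 and 221 genes were called (clone 1, clone 19, and clone 19 minus clone 1). Without it the counts were 9096, 8675 and 5404. The adjusted p was still that of a test against no change. The cutoff left 0 members higher in any comparison. Lower were 1 cell-cycle and 1 other or transcriptional member in clone 1, 3 and 2 in clone 19, and 0 between clones.

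With 50 neighbouring genes subtracted, cell-cycle members called lower numbered 6 in clone 1 and 5 in clone 19 (10 and 8 without), transcriptional and other members called higher 3 and 2 (6 and 6), and those lower in clone 19 than in clone 1 numbered 3 (6 without). Changes of sign are listed only for genes called with or without the subtraction. The sign turned in clone 1 for Ccnf (0.01), Cdk1 (0.05), Cdk4 (0.04), Ccnl1 (-0.28), Ccnl2 (-0.26), Cdk11b (-0.13) and Ccny (-0.02). It turned in clone 19 for Cdk1 (0.02), Cdk4 (0.15), Ccnl1 (-0.13), Ccnl2 (-0.01), Cdk11b (-0.18) and Cdk10 (-0.14), and between clones for Ccnf (-0.03), Gtf2h4 (-0.01) and Mllt1 (-0.01). The cause was not tested.

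Leaving out 1 library gave 8556 to 9107, 8094 to 8781 and 4434 to 5207 called genes in the 3 comparisons. Same-numbered libraries correlated in their deviations at -0.0353 to 0.123 and share only a number; with the replicate number as a block 9037, 8574 and 5169 genes were called, and transcriptional and other members higher in clone 19 than in clone 1 numbered 5, beside 6. Between clones the block ended the calls of Ccna2 (adjusted p = 0.083, limma) and Cdk5 (0.075) and added Cdkn2b (0.028); it changed no other member's call. Low members such as Cdk18, and the estimated depth, limit the smallest change that could be seen.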
